A study of Homo sapiens with 6 samples.

Results

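The TCEAL and BEX genes are 2 related families of small proteins encoded side by side on the X chromosome, and 9 of them are described here: TCEAL1, TCEAL3, TCEAL4, TCEAL7, TCEAL8, TCEAL9, BEX1, BEX2 and BEX4. They were chosen by name, as the family around TCEAL7. Each was read by the 1 deposited probe set that the platform annotation assigns to it alone. They are 9 of the 18338 genes named by the 41751 deposited probe sets, and TCEAL9 is the current symbol of WBP5. Shares of all genes below refer to these 18338. TCEAL7 stood out in the difference between the lines before the family was picked, so the differences of the members are given as a description, without p-values.

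Transcript levels were measured on HG-U133 Plus 2.0 arrays in a pair of stable HEK293 Tet-On lines, with 3 arrays for either line. HEK293 cells are a standard line of human embryonic kidney origin, and Tet-On cells switch on the inserted gene when doxycycline is added. The myocilin line carries a vector that expresses myocilin, a secreted glycoprotein of the eye's trabecular meshwork, and the control line carries the control vector. Both were kept under hygromycin B and G418, and the protocol given for both describes 0.2 or 1 µg/ml doxycycline for 48 h, without the dose behind each array. Only the myocilin arrays carry a description that names doxycycline. Each vector is represented by 1 line, and the labels do not say whether a line is 1 clone, so myocilin and other differences between the lines cannot be told apart. No label ties the 3 arrays to separate cultures, so the spread within a line, and every p-value below, may reflect technical error only.

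TCEAL proteins are small and acidic and are named for their resemblance to TFIIS, the elongation factor that restarts stalled RNA polymerase II. BEX proteins are small, largely disordered and best known from brain, where several of them link neurotrophin receptor signalling to cell cycle and survival. Both families are known from mammals, and their genes share stretches of promoter as well as of protein. TCEAL7 and BEX genes have been described as silenced in several tumours, and TCEAL7 as a brake on MYC activity and cyclin D1 expression.

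The promoters are shown because they display a feature that family members share and that the choice of genes did not use. RefSeq's promoter table for GRCh38.p14 holds the 250 bases before and 50 after the annotated start of a gene, and it has entries for 8 of the 9 members and for 13 of the 14 family genes, TCEAL7 being the one without. The stretch around the last E-box before the start is printed for the 8 members and for BEX3, 5′ to 3′ on the strand of the gene and ending no later than the start. Where a gene had several entries, the first with an E-box wholly before the start was used. Capitals mark the E-box, meaning here CACGTG, or CATGTG for TCEAL9, which has no CACGTG. Other E-box forms were not used to place the stretches, so another form may lie nearer the start.
BEX1, chrX:103064199-103064248, minus strand: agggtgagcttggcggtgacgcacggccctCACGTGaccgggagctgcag
BEX3, chrX:103376461-103376510, plus strand: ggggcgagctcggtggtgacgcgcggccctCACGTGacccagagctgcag
BEX4, chrX:103215059-103215107, plus strand: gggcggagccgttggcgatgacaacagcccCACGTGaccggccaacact
BEX2, chrX:103310991-103311039, minus strand: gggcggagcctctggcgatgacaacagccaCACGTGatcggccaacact
TCEAL8, chrX:103255167-103255216, minus strand: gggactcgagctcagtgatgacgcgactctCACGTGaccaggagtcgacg
TCEAL9, chrX:103356439-103356488, plus strand: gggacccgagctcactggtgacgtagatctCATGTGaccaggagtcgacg
TCEAL1, chrX:103628889-103628938, plus strand: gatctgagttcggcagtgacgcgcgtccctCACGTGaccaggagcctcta
TCEAL3, chrX:103607853-103607902, plus strand: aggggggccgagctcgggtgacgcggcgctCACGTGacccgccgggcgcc
TCEAL4, chrX:103585475-103585514, plus strand: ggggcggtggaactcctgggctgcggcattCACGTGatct

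The palindrome CACGTG, the E-box that MYC, MAX, USF and related factors can bind, was present in the promoters of 11 of 13 family genes, or 84.6%, against 8.77% of the 27305 genes in the table. The exceptions were TCEAL9, which has CATGTG at the matching place, and BEX5. The longer palindrome TCACGTGA was present in 9 of the 13 family genes and in 1.18% of all genes. Among the members it is seen in BEX1, TCEAL8, TCEAL1, TCEAL3 and TCEAL4, while BEX2 and BEX4 carry the shorter form. In the entries used, the E-box began 10 to 80 bases before the annotated start. It began at 47 bases in both BEX1 and BEX3 and at 19 bases in both BEX2 and BEX4. Other annotated starts of the same genes differ: the box of BEX4 begins 3 bases before its other start. The entries of BEX3 and TCEAL1 that were not used hold no CACGTG.

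A second short word, TGACG, stands before the E-box in most of these stretches. The spaced form TGACGNNNNNNNCANGTG, searched on both strands, was found in 6 of 13 family genes, among them TCEAL3, TCEAL8 and TCEAL9, and in 25 genes of the whole table. By promoter entries, 10 of the 26 that hold it lie on chromosome X. The form with 2 more bases in the gap, TGACGNNNNNNNNNCANGTG, was found in 3 family genes, BEX1, BEX3 and TCEAL1, and in 14 genes of the table. BEX2, BEX4 and TCEAL4 hold neither form. These motifs were picked after the sequences had been read, they overlap the E-box by construction, and a match is a run of letters and not a site shown to be bound. Laid side by side from the first base, the stretches of BEX2 and BEX4 were identical at 45 of 49 bases, those of BEX1 and BEX3 at 43 of 50 and those of TCEAL8 and TCEAL9 at 42 of 50. TCEAL4 and BEX4 matched at 14 of the 40 bases that could be compared, the lowest share among the pairs of family genes with such a stretch. Every stretch starts 30 bases before its E-box. The counts therefore include the E-box, which matches by construction apart from the base that differs in TCEAL9.

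**Figure D1:**
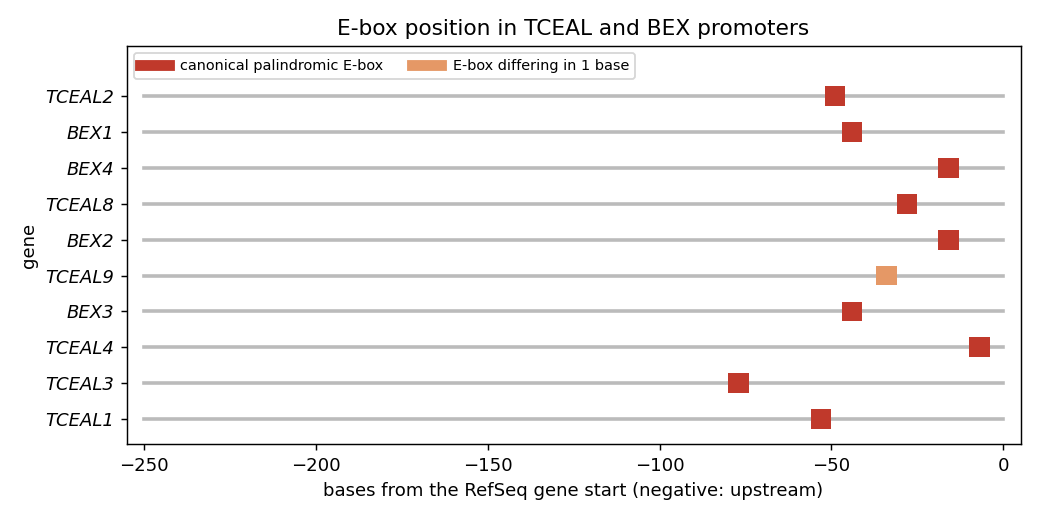
Position of the last E-box before the annotated start in the promoters of 10 measured TCEAL and BEX genes, in bases from the RefSeq start (horizontal axis, negative is upstream), 1 gene per line in chromosomal order. Every E-box shown begins within 80 bases of the start, and the box of TCEAL9 differs from the palindrome in 1 base.

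The deposited values are on a log scale, read here as log2, and were centred for each probe set on a level that no source states. A value of 0 is therefore that level and not absence of RNA, and values of different genes cannot be ranked against each other. The centring also leaves no way to tell whether a low value lay above background, or to check marker genes of kidney cells by their level. MYOC, the inserted gene, checks the labels: its centred values were 0.21, 0.20 and 0.24 on the myocilin arrays and -6.71, -8.32 and -8.29 on the control arrays. Across all probe sets, correlations between arrays were 0.513 to 0.608 within the myocilin line, 0.409 to 0.464 within the control line and -0.244 to -0.00516 between the lines. Centring removes the level of each gene, so low or negative correlations here do not mean that arrays or lines had unlike profiles. In the limma fit across all genes, 15.6% had an adjusted p under 0.05 (Benjamini-Hochberg), and such genes are called different below.

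TCEAL7 was higher in the myocilin line, while 8 of the 9 members, its paralogues, were lower there or close to the control line. The 3 BEX members and TCEAL8 were lower by 0.71 to 0.79 on the log2 scale, TCEAL9 by 0.44, and TCEAL4, TCEAL1 and TCEAL3 by less than 0.22. In the fit, 1 member was called higher and 6 lower, against 8.28% and 7.35% of all genes called in those directions. With the measured paralogues BEX3, BEX5 and TCEAL2 added, 2 of 12 family genes were called higher and 7 lower. These counts describe genes picked with the result known. In these bulk RNA samples, a change in the number of cells expressing a gene and a change in RNA per cell cannot be told apart. The median log2 difference over the 9 members was -0.44, beside 0.02 over all genes.

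TCEAL7, the member described as an inhibitor of MYC and cyclin D1, had centred log2 values of 0.81, 0.42 and 0.27 on the myocilin arrays and -1.46, -1.62 and -1.66 on the control arrays. All myocilin arrays lay above all control arrays, and the myocilin arrays were also further apart from each other. The means were 0.50 ± 0.28 in the myocilin line and -1.58 ± 0.11 in the control line (SD, n = 3 each). The log2 difference amounted to 2.07 ± 0.12 (SE), with a 95% interval of 1.79 to 2.35, or 4.21-fold at face value. It was the highest difference among 671 measured genes of chromosome X and the sixth highest among all 18338 genes. The spread of TCEAL7 within the lines, an SD of 0.21, was larger than that of 97.6% of genes, and its difference without any single array stayed between 1.92 and 2.19.

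TCEAL8, a member with little known function, went the other way. Its centred log2 values were -0.70, -0.82 and -0.76 on the myocilin arrays and 0.06, 0 and 0.03 on the control arrays, so the groups were far apart and tight. The log2 difference of -0.79 ± 0.06 (SE) was the lowest of any member and the fifth lowest on chromosome X.

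BEX1, which is strongly expressed in neurons and has been tied to neurotrophin signalling through the p75 receptor, read -1.37, -1.47 and -1.42 on the myocilin arrays and -0.67, -0.80 and -0.66 on the control arrays (centred log2). The lines did not overlap. All 6 arrays lay below the centring level, which holds for 0.968% of all probe sets. The lines differed by -0.71 ± 0.06 (log2, SE).

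BEX2, the closest relative of BEX1 and reported to bind the transcriptional cofactor LMO2, read -0.64, -0.71 and -0.70 on the myocilin arrays and 0.07, 0.08 and -0.05 on the control arrays (centred log2). The lines differed by -0.72 ± 0.06 (log2, SE), close to the -0.71 of BEX1. BEX4, a BEX protein described on microtubules, read -0.55, -0.72 and -0.76 on the myocilin arrays and 0.07, 0.15 and -0.01 on the control arrays. The lines differed by -0.75 ± 0.07 (log2, SE). In both genes every myocilin array lay below every control array, and the 95% intervals of the BEX1, BEX2 and BEX4 differences overlapped almost completely, running from -0.91 at the lowest bound to -0.57 at the highest. The BEX4 probe set has an ID ending in _s_at, which marks probes that can match more than 1 transcript.

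TCEAL9, known as a WW domain binding protein, read -0.48, -0.31 and -0.58 on the myocilin arrays and 0.01, 0 and -0.05 on the control arrays (centred log2). The lines did not overlap, and the myocilin arrays were more scattered. Its log2 difference of -0.44 with a standard error of 0.07 was smaller in size than those of the BEX members and TCEAL8.

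The last 3 members along the chromosome differed little between the lines. TCEAL4 read 0, -0.18 and -0.13 on the myocilin arrays and 0.13, 0.09 and 0.12 on the control arrays (centred log2), a difference of -0.22 with a standard error of 0.06. Its call did not hold in 9 of 12 alternative settings. A test with each gene's own variance in each line called 0 of the 9 members after adjustment (7 at an unadjusted p under 0.05), and calls of members under any setting are no support for differences that the choice of genes used. TCEAL1, the founding member and a nuclear phosphoprotein that modulates transcription, read -0.0026, -0.07 and -0.21 on the myocilin arrays and 0, 0.09 and 0.02 on the control arrays. Its log2 difference was -0.13, with a 95% interval of -0.29 to 0.02. TCEAL3 read -0.04, -0.09 and -0.06 on the myocilin arrays and -0.04, 0 and 0.22 on the control arrays, a difference of -0.12 with an interval of -0.29 to 0.04. The highest myocilin array of TCEAL3 lay just under the lowest control array. By this measure the lines were apart in all 9 members, as in 34.9% of all genes.

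**Figure D2:**
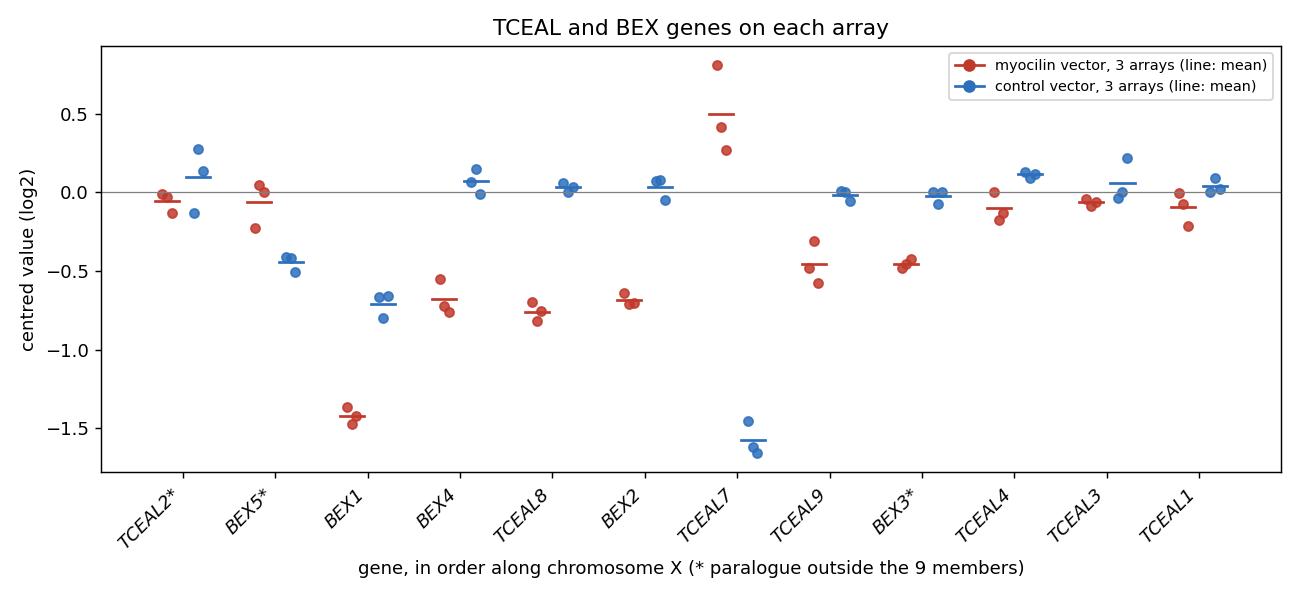
Centred log2 value (vertical axis) of the 9 members and 3 further paralogues on each array, with genes in chromosomal order; points are arrays, short lines are means of 3 arrays, and the myocilin line stands left of the control line. TCEAL7 is the one gene whose myocilin arrays, at 0.27 to 0.81, lie over 1 log2 unit above its control arrays, at -1.66 to -1.46.

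Of the 5 other family genes, 3 were measured. BEX3, which encodes the p75 neurotrophin receptor-associated cell death executor, fell to -0.48, -0.45 and -0.42 on the myocilin arrays, against 0, -0.08 and 0.0020 on the control arrays (centred log2). The lines differed by -0.43 ± 0.06 (log2, SE, limma adjusted p = 0.00128), close to that of its neighbour TCEAL9. BEX5 rose to -0.23, 0.05 and 0 on the myocilin arrays, against -0.41, -0.42 and -0.51 on the control arrays, a difference of 0.39 ± 0.08 (log2, SE, limma adjusted p = 0.0113). It was the only family gene besides TCEAL7 that was higher in the myocilin line, among the 12 measured. TCEAL2 read -0.01, -0.03 and -0.13 on the myocilin arrays and -0.13, 0.28 and 0.14 on the control arrays, which overlapped, and its difference of -0.15 did not pass the threshold (limma adjusted p = 0.336). TCEAL5 and TCEAL6 have no probe set assigned to them alone, so their RNA is not described, and they count only in the promoter shares.

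The members can also be read in their order along the chromosome. RefSeq places BEX1, BEX4, TCEAL8, TCEAL5, BEX2, TCEAL7, TCEAL9 and BEX3 in this order, with TCEAL4, TCEAL3 and TCEAL1 after them and TCEAL2, TCEAL6 and BEX5 in a separate group before them. Of the 7 measured family genes from BEX1 to BEX3, 6 were lower by 0.43 to 0.79 on the log2 scale, and TCEAL7, between BEX2 and TCEAL9, was the one that was higher. The 1 other gene measured in that stretch, NXF3, an mRNA export factor homologue, differed by 0.10 (limma adjusted p = 0.541). The 3 family genes after BEX3 were lower by 0.12 to 0.22.

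Most genes around the family did not pass the threshold. Of 27 measured neighbours outside the family, taken as those lying between its first and last gene and the 10 on either side, 2 rose, 1 fell and 24 did not pass the threshold, or 11.1% called, against 15.6% of all genes, with a median log2 difference of -0.06. The gene that fell was GPRASP1, which sorts G protein-coupled receptors to lysosomes, at -1.16 ± 0.14 (log2, SE, limma adjusted p = 0.000965). TMEM31 rose by 0.46 (limma adjusted p = 0.00543) and ARMCX1, a mitochondrial armadillo protein, by 0.35 (limma adjusted p = 0.0114). On chromosome X outside the family, 14.9% of 659 genes were called, with a median of -0.01.

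**Figure D3:**
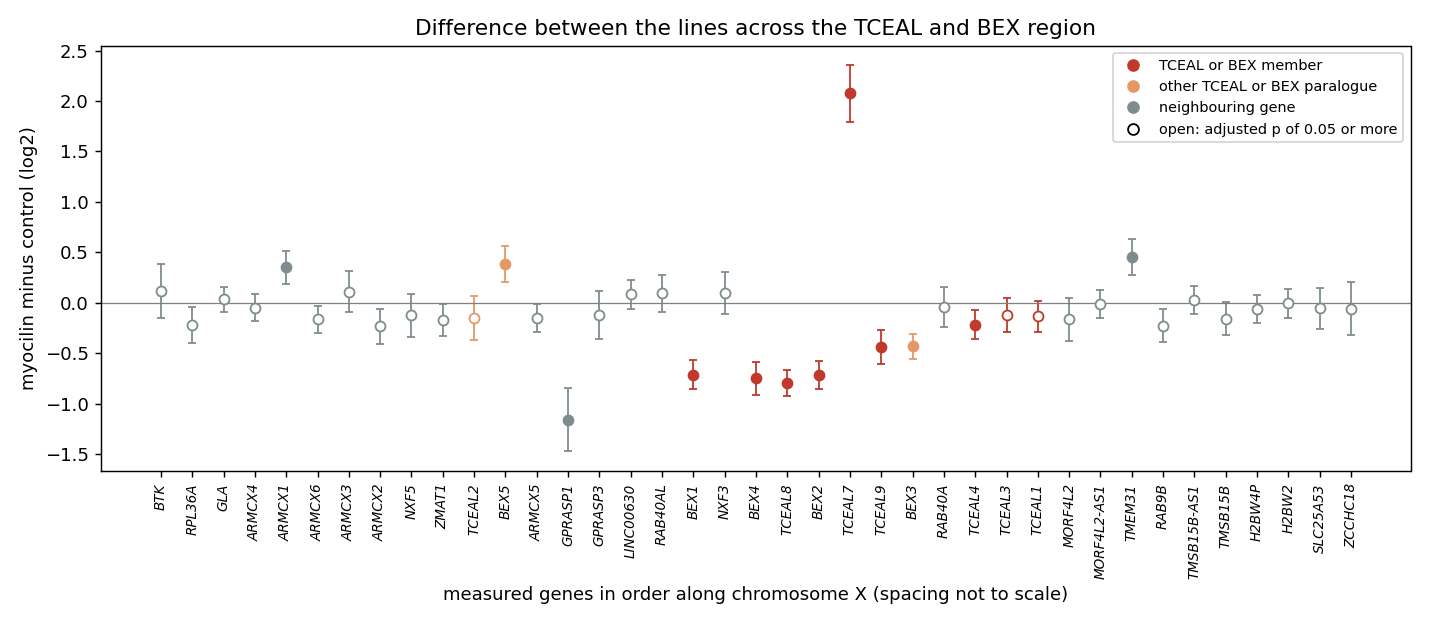
Log2 difference, myocilin minus control, of the TCEAL and BEX genes and their 27 neighbours in chromosomal order; bars are 95% limma intervals and open points did not pass an adjusted p of 0.05. The run from BEX1 to BEX3 lies between -0.79 and -0.43, interrupted by NXF3 at 0.10 and TCEAL7 at 2.07.

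The ARMCX and GPRASP genes share the chromosomal region, and the promoter motifs are not particular to the TCEAL and BEX genes: CACGTG is found in 5 of the 8 ARMCX and GPRASP genes with an entry, TCACGTGA in 4, the spaced form with the shorter gap in 2 and that with the longer gap in 1. Of 9 listed, 8 were measured: 1 rose, 1 fell and 6 did not pass, or 25% called, against 15.6% of all genes, with a median log2 difference of -0.14 beside 0.02 over all genes. The called genes were ARMCX1 and GPRASP1, described above, and GPRASP3, which lies close to GPRASP1, differed by -0.12 (limma adjusted p = 0.504).

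Genes of transcription elongation, the process for which the TCEAL family is named, were also listed. Of 25, 23 were measured: 1 rose, 1 fell and 21 did not pass, or 8.7% called, against 15.6% of all genes, with a median log2 difference of -0.0018. NELFB, a subunit of the complex that holds paused polymerase, rose by 0.27 (limma adjusted p = 0.0129). HEXIM1, an inhibitor of the elongation kinase P-TEFb, had a log2 difference of -0.26 (limma adjusted p = 0.0344), and neither of its 2 probe sets passed on its own. TCEA1, which encodes TFIIS itself, differed by 0.10 (limma adjusted p = 0.397), and is named for its role.

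Of 12 genes listed as reported partners or targets of TCEAL and BEX proteins, 11 were measured: 2 rose, 1 fell and 8 did not pass, or 27.3% called, against 15.6% of all genes, with a median log2 difference of 0.06. Like the ARMCX, GPRASP and elongation lists above, this list was chosen with earlier results of these data known, so its share is a description. MYC rose by 0.67 with a standard error of 0.08 (limma adjusted p = 0.000836). CCND1, the cyclin D1 gene, rose by 0.25 with a standard error of 0.07 (limma adjusted p = 0.0319). Both were higher in the line in which TCEAL7 was higher. Whether TCEAL7 bears on either RNA was not tested and cannot be told apart from other differences between the lines. Of the 2 probe sets of CCND1, at 0.16 and 0.35, 1 passed on its own. LMO4, a LIM-only transcriptional cofactor, fell by 0.59 (limma adjusted p = 0.00154), while its relative LMO2 differed by 0.12 and NGFR, the p75 receptor gene, by -0.03, neither past the threshold.

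Since BEX genes are best known from neurons, 17 neuronal genes were set beside them: 3 rose, 5 fell and 9 did not pass, or 47.1% called, against 15.6% of all genes. The median log2 difference was 0.03, over members that went both ways. This list too was chosen with earlier results of these data known, so its share called is a description. The neurofilament genes NEFM and NEFH rose by 1.42 and 0.67 and the related filament gene INA by 0.35 (limma adjusted p = 3.77e-06, 0.00022 and 0.00637). SYT1, the synaptic calcium sensor, had a log2 difference of -0.61, MAP2, a dendritic microtubule protein, -0.43 and the deubiquitinase gene UCHL1 -0.29 (limma adjusted p = 0.000667, 0.00224 and 0.0143). The probe sets of NEFM disagreed in size, at 0.17 and 2.66. For NEFM, SYT1, MAP2 and UCHL1, 1 of 2 probe sets passed the threshold on its own.

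The genes most like TCEAL7 over the 6 arrays, by the root mean square difference after each gene was centred on its own mean, lay on other chromosomes. They were PXDN at 0.19 log2 units, PTGER4 at 0.20, PLA2G4A at 0.22, H4C8 at 0.25 and PGR at 0.29, and their Pearson correlations with TCEAL7 were 0.979 to 0.991 over 6 arrays. Nearly all of the TCEAL7 profile is the difference between the lines, so the choice of these genes fixes both the high correlation and the higher value in the myocilin line, by 1.60 to 2.17 on the log2 scale. The probe sets of PTGER4 read 1.01 and 3.27 and those of PGR 0.55 and 2.64, so the mean hides a wide spread in both. The same distance from TCEAL7 was 0.88 for BEX5 and 1.11 to 1.44 for the other family genes measured.

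**Figure D4:**
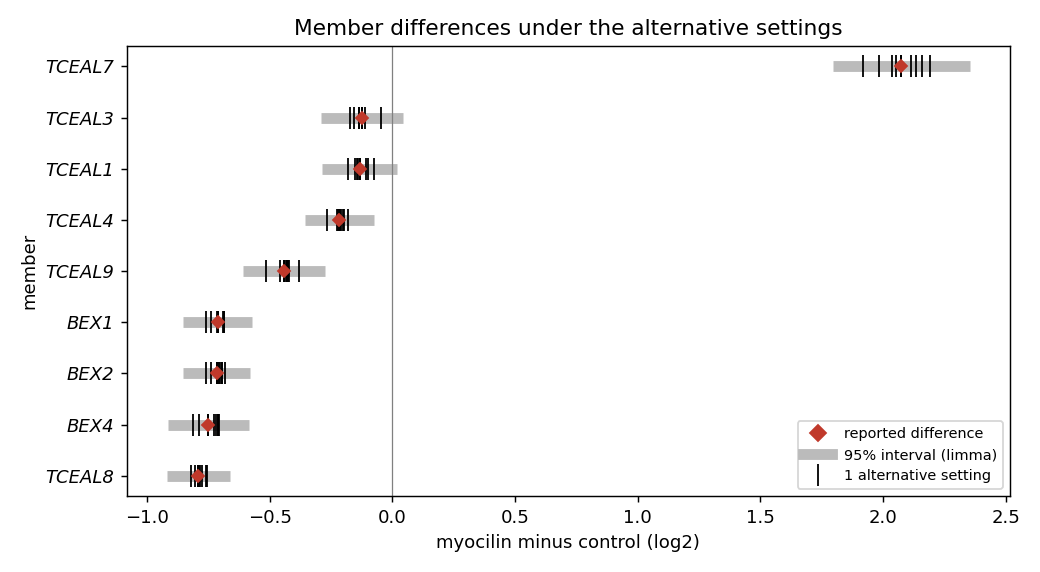
Log2 difference, myocilin minus control (horizontal axis), of each member: the diamond is the reported value, the grey bar its 95% limma interval and each tick an alternative setting. TCEAL7 stays between 1.92 and 2.19, and the other 8 members stay below 0 in the settings run. Most of these settings could not have changed a sign, since each member has 1 probe set and its lines did not overlap.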

How the data were processed

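The authors deposited 1 value per probe set and array on a log scale, taken here as log2 from the values; how they were made, from background correction to normalisation, and the log base were not given in the sources used here. All array medians are 0, and an exact 0 on 1 or more arrays is found in 57.3% of the 41751 probe sets. Arrays were grouped by source name, 3 per line; the number of arrays limits the precision. Of the probe sets, 37460 had 1 gene in the platform annotation and gave 18338 genes, each the mean of its probe sets. Among those probe sets, 37416 matched RefSeq by Entrez identifier, and the rest kept the symbol of the annotation. The test was limma's (version 3.58.1 in R 4.3.3; lmFit, then eBayes; two-sided), with Benjamini-Hochberg adjustment over all genes and a threshold of 0.05. Promoters came from RefSeq's table of 35116 entries. Members and lists were chosen with earlier results of these data known. Named were MYOC, all members and measured paralogues, up to 6 called genes per list by p, and the 5 genes most like TCEAL7; exceptions named for their role were NXF3, GPRASP3, TCEA1, LMO2 and NGFR. The fit was tested on simulated data over 18338 genes, with 200 genes changed and errors drawn independently. A change of 0.3 log2 units was found in 26.9% of 67 genes, 0.5 in 71.6% of 67 and 1 in 97% of 66. Of the 135 calls, 5 were false. The reported fit called far more genes, 2866, so these rates may not hold for it. Alternatives were quantile normalization, array weights, eBayes with a trend and robust fitting, no _x_at or _s_at probe sets, 1 probe set per gene, a test with each gene's own variance per line, probe sets in place of genes, and each array left out.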

Additional observations from a re-analysis of the deposited data

How the results depend on the processing

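The 9 member differences kept their sign in every alternative run and moved by less than the within-line SD of the gene. Most of these runs could not have changed a sign. Each member has 1 probe set, and its lines did not overlap, so leaving out or weighting arrays keeps the sign. Other choices of test or probe set returned the same difference or did not measure the gene. Only quantile normalization could have changed a sign. The count of members called, 7 of 9, was 6 to 7 with 1 array left out, and 0 in the test that uses each gene's own variance in each line (7 members at an unadjusted p under 0.05, limma calling 7). That test called 44 of all genes, 0 of the neighbours, 0 paralogues, 0 ARMCX and GPRASP genes, 0 elongation genes, 0 partners and 0 neuronal genes, with 4005, 5, 2, 4, 1, 3 and 9 at an unadjusted p under 0.05. Of all genes, 2866 were called in the reported fit, 1613 to 2220 with 1 array left out (1613 when myocilin array 1 was left out, 1889 for control array 2, 1905 for myocilin array 2), 1878 without _x_at and _s_at probe sets, where fewer genes are tested, and 4603 as probe sets. Without those probe sets 1 paralogue, 1 elongation gene and 1 partner were called, and BEX3 and BEX4 were not measured. Elongation genes called were 1 with array weights and 1 to 2 with 1 array left out. Partners called were 7 as probe sets and 2 to 3 with 1 array left out. Neuronal genes called were 5 with 1 probe set per gene and 6 to 7 with 1 array left out. Neighbours called were 3 to 4, ARMCX and GPRASP genes 2 to 3 and paralogues 2 in each case with 1 array left out. The filter on dim probe sets was not run, since centred values keep no brightness. No paired analysis was possible because the labels give the 2 lines no shared replicate numbers. Signal over background could not be judged.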
